A study of Rattus norvegicus with 18 samples.

Results

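The 9 genes described here are p53 targets and genes of the senescence program: *Cdkn1a*, *Cdkn2a*, *Cdkn2b*, *Mdm2*, *Gdf15*, *Ccng1*, *Bax*, *Sesn2*, and *Gadd45a*. They were chosen by name, and each had 1 row among the 22081 gene rows of the deposited RNA-seq tables. RNA-seq was performed on lungs of male F344/DuCrlCrlj rats that received MWNT-7, a multi-walled carbon nanotube (MWCNT), at 0.5 mg/kg by intratracheal instillation every 4 weeks from 9 weeks of age. Control rats received the vehicle, saline with Tween 80, on the same schedule. The lungs of 3 control and 3 MWCNT-treated rats were examined at each of 3 time points (Year 0.5, 1, and 2), giving 6 groups and 18 rats, 1 library each. Frozen pieces of the accessory lobe were used after tumor nodules had been left out. Age, the number of instillations, and the time since the first dose increased together, so their effects cannot be told apart in these groups.

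p53 is a transcription factor that accumulates after DNA damage and other stress, and it raises transcription of genes that halt the cell cycle, start apoptosis, or repair damage. Senescence is a lasting arrest of the cell cycle that is held by inhibitors of cyclin-dependent kinases (CDKs), among them the products of *Cdkn1a* (p21), *Cdkn2a* (p16INK4a and ARF), and *Cdkn2b* (p15INK4b). In lung tissue, persistent fibers are known for causing inflammation, oxidative stress, and DNA damage, conditions under which both programs can be engaged.

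Libraries of control rats held 13297643 to 17868851 counts in total, and those of treated rats 14661589 to 21130757. Values of each rat are given below as TMM-adjusted CPM (counts scaled to the size of each library), in the order of the replicate numbers 1, 2, and 3. Differences are log2 fold changes of MWCNT-treated against control rats with their standard error (SE). FDR is the adjusted p-value of edgeR's quasi-likelihood test over all genes tested, and a gene passed the test at an FDR below 0.05. A differentially expressed gene (DEG) also had an absolute log2 fold change above 1. In whole tissue, a change in the number of cells of a type and a change in RNA per cell cannot be told apart.

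Among the members with a promoter window, those of *Cdkn1a* and *Ccng1* came closest to the p53 consensus site, and their sequences are shown. RefSeq promoter windows were matched for 8 of the 9 genes, all but *Bax*. The consensus site has 20 bases, built from a pair of 10-base half-sites, and was searched without a spacer; it reads the same on both strands. Each sequence below holds the 250 bases before the transcription start given by RefSeq (GRCr8), 5′ to 3′ on the gene's strand, with the 20 bases nearest to the consensus in capitals. The *Cdkn1a* sequence lies at chr20:7150682-7150931 (plus strand) and the *Ccng1* sequence at chr10:25684877-25685126 (minus strand).
Cdkn1a: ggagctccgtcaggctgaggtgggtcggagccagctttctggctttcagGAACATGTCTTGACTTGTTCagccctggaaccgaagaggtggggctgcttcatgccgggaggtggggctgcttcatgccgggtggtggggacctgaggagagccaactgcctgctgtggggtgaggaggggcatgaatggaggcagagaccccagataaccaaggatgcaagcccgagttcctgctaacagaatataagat
Ccng1: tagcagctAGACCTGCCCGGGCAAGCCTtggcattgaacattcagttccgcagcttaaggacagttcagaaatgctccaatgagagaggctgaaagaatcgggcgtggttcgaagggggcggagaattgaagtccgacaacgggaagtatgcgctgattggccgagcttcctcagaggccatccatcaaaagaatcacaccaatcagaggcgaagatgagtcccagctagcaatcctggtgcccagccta
The match in *Cdkn1a* began 201 bases before this start and the match in *Ccng1* 242 bases before it. Each differed from the consensus at 1 base. Among 33469 promoter windows of 300 bases (250 before and 50 after a start), 24 (0.0717%) held a match with at most 1 mismatch. The nearest stretches of the other 6 genes with a window had 4 or 5 mismatches, and 76.2% of all windows held one with at most 5. These matches are descriptions of the letters in a window around 1 annotated start, and elements elsewhere in a gene, such as the intronic p53 element known for *Mdm2*, lie outside it.

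The treated lungs had higher levels of a subset of these genes. At Year 0.5, 4 of the 9 genes rose and the other 5 did not pass, where 20.2% of the genes tested rose and 18.6% fell. At Year 1, 4 rose and 1 fell, with 21.6% of genes tested rising and 19.6% falling. At Year 2, 4 rose and 2 fell, with 25.2% rising and 24% falling. The median log2 fold change of the 9 genes was 0.21, 0.48, and 0.23 at the 3 time points in turn, and the median over all genes tested was -0.02, 0.00, and -0.01. All 9 genes passed the filter on low counts at each time point. *Cdkn2a*, 1 of the 4 that rose at Year 0.5 and at Year 1, passed it there only through the treated rats. The plots of CPM by rat and of log2 fold change by time point show that *Ccng1* was raised throughout, that the groups of *Mdm2* overlapped at each time point, and that *Cdkn2b* separated at Year 2.

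**Figure D1:**
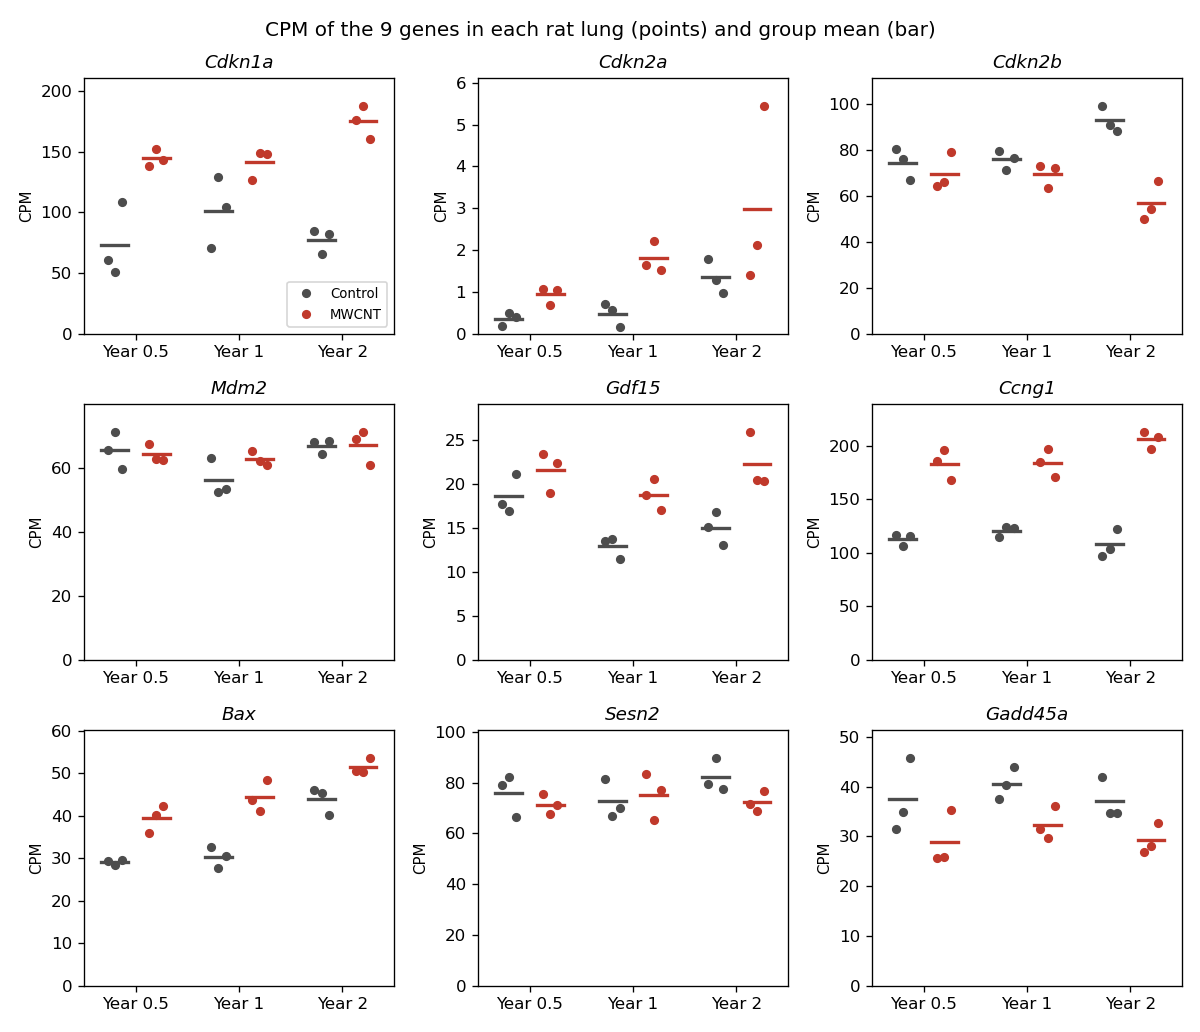
CPM (vertical axis, from 0) of each of the 9 genes in the 18 rats by time point (horizontal axis), with control rats in gray and MWCNT-treated rats in red; points are rats and bars are means of 3 rats. *Ccng1* lies between 97.2 and 123 CPM in controls and between 168 and 213 CPM in the treated rats.

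**Figure D2:**
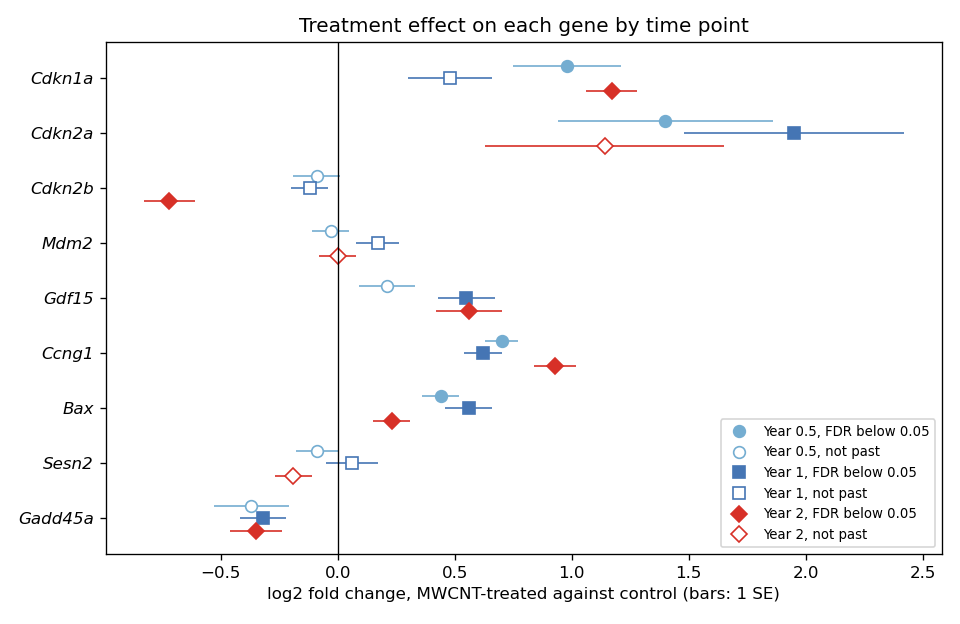
Log2 fold change of MWCNT-treated against control rats (horizontal axis) for each gene (vertical axis) at the 3 time points, with bars of 1 SE; filled symbols passed the test and open symbols did not. *Cdkn2b* stands at -0.09 and -0.12 at the first 2 time points and at -0.72 at Year 2.

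Among the CDK inhibitors of the 9 genes, *Cdkn1a*, whose product p21 blocks CDKs and is the classical target of p53, was the most abundant in the lung. At Year 0.5 its CPM was 60.3, 50.7, and 109 in controls and 138, 152, and 144 in the treated rats. At Year 1 it was 70.8, 129, and 105 in controls and 127, 149, and 148 in the treated rats. At Year 2 it was 84.8, 65.7, and 81.8 in controls and 177, 188, and 160 in the treated rats. The treated rats were above every control rat at Year 0.5 and Year 2, whereas 1 control rat of Year 1 lay within the treated range. *Cdkn1a* (ENSRNOG00000000521, chromosome 20, 6351458 to 6358864, Rnor_6.0) rose at Year 0.5 (log2 fold change 0.98, SE 0.23, FDR 0.0103) and at Year 2 (1.17, SE 0.11, FDR 2.75e-05), and at Year 1 the difference was 0.48 (SE 0.18, FDR 0.0606). Over the 3 time points together the mean effect was 0.88 (SE 0.13, FDR 1.16e-05). Leaving out control replicate 1 of Year 0.5 gave 0.86 with an FDR of 0.0501 at that time point, and at Year 1 the difference was 0.28 (FDR 0.0919) without control replicate 1 and 0.69 (FDR 0.0172) without control replicate 2. In DESeq2 the Year 1 difference of 0.48 passed (FDR 0.0185).

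The control rats differed in *Cdkn1a* more than the treated rats did, and other genes varied alongside. *Fkbp5*, *Tsc22d3*, *Zbtb16*, and *Per1*, genes that glucocorticoids induce in many tissues, were chosen after their values were seen. *Fkbp5* was at 41.9, 224, and 208 CPM in the control rats of Year 1, the same order of replicates in which *Cdkn1a* was low in replicate 1 and high in replicates 2 and 3. It was at 32.5, 30.9, and 64.2 CPM in the control rats of Year 0.5, where replicate 3 was also the highest in *Cdkn1a*. *Zbtb16* was at 9.82, 105, and 131 CPM in the control rats of Year 1, and between 7.62 and 8.94 CPM in those of Year 2. In the control rats of Year 0.5 it was at 17.7, 8.87, and 8.01 CPM, lowest in replicate 3, where *Cdkn1a* was highest. Within the treated groups *Fkbp5* also varied, from 41.2 to 169 CPM at Year 0.5, while *Cdkn1a* ranged from 138 to 152 CPM there. The Pearson correlation of log2 CPM between *Cdkn1a* and *Fkbp5* was 0.84 over the 9 control rats and 0.23 over the 9 treated rats. The same values were 0.88 and 0.10 for *Tsc22d3*, 0.85 and 0.31 for *Per1*, and 0.59 and -0.06 for *Zbtb16*. These rats share 3 groups per treatment, and the part of these genes in the *Cdkn1a* results was not tested.

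*Cdkn2a*, the locus of the senescence marker p16INK4a and of ARF, an inhibitor of Mdm2, was near the limit of detection. At Year 0.5 it had 3, 7, and 6 counts in controls and 16, 14, and 16 in the treated rats. At Year 1 there were 10, 9, and 3 in controls and 25, 36, and 23 in the treated rats. At Year 2 there were 26, 20, and 14 in controls and 19, 34, and 81 in the treated rats. The treated rats were above the control rats at the first 2 time points, and the groups overlapped at Year 2, where 1 treated rat stood far above the others. Summed over the 3 rats of a group, the counts at Year 0.5 were 16 (95% Poisson interval 9.15 to 26.0) in controls and 46 (33.7 to 61.4) in the treated rats, and the intervals cover counting error only.

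The log2 fold change of *Cdkn2a* (ENSRNOG00000059837, chromosome 5, 107823330 to 107841175, minus strand) was 1.40 (SE 0.46, FDR 0.0383) at Year 0.5 and 1.95 (SE 0.47, FDR 0.00984) at Year 1, past the DEG limit at both. At Year 2 it was 1.14 (SE 0.51, FDR 0.0913). The mean effect over the 3 time points was 1.50 (SE 0.31, FDR 0.000451). At both time points the gene passed the filter only through the treated rats, since all 3 control rats of Year 0.5 and 2 of 3 control rats of Year 1 had fewer than 10 counts. The Year 0.5 call was lost when control replicate 1 or 3 or any treated rat was left out (log2 fold changes between 1.06 and 1.59, FDR 0.0556 to 0.136), with DESeq2 (FDR 0.0965), without the filter (FDR 0.0755), and in 1 model of all 18 rats (FDR 0.0738). At Year 2, leaving out treated replicate 3 gave 0.39 (FDR 0.489), and leaving out treated replicate 1 gave 1.48 (FDR 0.0345). Counts per gene do not separate the p16INK4a and ARF transcripts.

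*Cdkn2b* lies next to *Cdkn2a* on chromosome 5 (ENSRNOG00000006735, 107845951 to 107858104, minus strand), and its product p15INK4b inhibits Cdk4 and Cdk6, as p16INK4a does. It did not rise at any time point. At Year 0.5 its CPM was 80.2, 75.8, and 66.6 in controls and 64.3, 65.8, and 78.8 in the treated rats, and at Year 1 the groups overlapped as well. At Year 2 it was 99.1, 90.8, and 88.3 CPM in controls and 49.7, 54.0, and 66.2 CPM in the treated rats. All 3 treated rats of Year 2 were below all control rats, and 2 of them were below every other rat of the study. The log2 fold change was -0.09 (SE 0.10, FDR 0.492) at Year 0.5, -0.12 (SE 0.08, FDR 0.283) at Year 1, and -0.72 (SE 0.11, FDR 0.000492) at Year 2. With library size as the only scaling, which moved the median of all genes at Year 1 by -0.14, it was -0.25 with an FDR of 0.0394, and on log2(TPM + 1), which moved that median by -0.21, it was -0.34 with an FDR of 0.0275.

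*Mdm2* encodes the ubiquitin ligase that degrades p53 and is itself induced by p53, closing a feedback loop. Its CPM ranged from 59.6 to 71.2 in controls and from 62.3 to 67.6 in the treated rats of Year 0.5. At Year 2 the ranges were 64.3 to 68.2 CPM and 60.9 to 71.3 CPM. The groups overlapped at all 3 time points. Treated and control rats differed by log2 values of -0.03 (SE 0.08, FDR 0.811), 0.17 (SE 0.09, FDR 0.169), and -0.00 (SE 0.08, FDR 0.98) at the 3 time points. Without control replicate 1 of Year 1 the difference at that time point was 0.25, with an FDR of 0.0374. On log2(TPM + 1), which moved the median of all genes by -0.17 in the mean effect, *Mdm2* was at -0.22 at Year 2 (FDR 0.048) and at -0.15 in the mean effect (FDR 0.00846).

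*Ccng1* encodes cyclin G1, an early p53 target that recruits a phosphatase to Mdm2, and it was the gene with the clearest separation. At Year 0.5 its CPM was 116, 106, and 115 in controls and 185, 196, and 168 in the treated rats. At Year 1 it was 114, 123, and 122 CPM against 185, 196, and 170 CPM, and at Year 2 it was 97.2, 104, and 122 CPM against 213, 196, and 208 CPM. Every treated rat was above every control rat of the study. *Ccng1* (ENSRNOG00000003256, chromosome 10, 25903911 to 25910325, minus strand) rose at Year 0.5 (log2 fold change 0.70, SE 0.07, FDR 0.000164), Year 1 (0.62, SE 0.08, FDR 0.000401), and Year 2 (0.93, SE 0.09, FDR 4.17e-05). These are differences of 1.63-fold, 1.54-fold, and 1.9-fold, below the DEG limit.

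*Gdf15* encodes a secreted stress cytokine of the TGF-β family that p53 and the integrated stress response can both induce. At Year 0.5 its CPM was 17.7, 16.9, and 21.2 in controls and 23.4, 18.9, and 22.3 in the treated rats, and the groups overlapped. At Year 1 it was 13.5, 13.7, and 11.4 CPM against 18.7, 20.6, and 17.0 CPM, and at Year 2 it was 15.1, 16.9, and 13.1 CPM against 25.9, 20.5, and 20.3 CPM. In both later years all treated rats were above all control rats. The log2 fold change was 0.21 (SE 0.12, FDR 0.198) at Year 0.5, and *Gdf15* rose at Year 1 (0.55, SE 0.12, FDR 0.00629) and Year 2 (0.56, SE 0.14, FDR 0.00898).

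*Bax*, which permeabilizes the outer mitochondrial membrane in apoptosis, rose at all 3 time points. Its CPM was 29.3, 28.4, and 29.6 in controls and 36.0, 40.1, and 42.2 in the treated rats of Year 0.5. At Year 1 it was 32.7, 27.7, and 30.4 CPM against 43.8, 41.0, and 48.5 CPM, and at Year 2 it was 46.1, 45.3, and 40.2 CPM against 50.6, 50.2, and 53.7 CPM. The groups did not overlap at any time point, and the control rats of Year 2 had reached the levels of the treated rats of the earlier years. On the log2 scale the differences were 0.44 (SE 0.08, FDR 0.00289), 0.56 (SE 0.10, FDR 0.0021), and 0.23 (SE 0.08, FDR 0.041). The Year 2 call was lost with library size as the only scaling (0.05, FDR 0.585; median of all genes moved by -0.17), on log2(TPM + 1) (0.01, FDR 0.901; median moved by -0.19), and with DESeq2 (0.22, FDR 0.0783). It was also lost when control replicate 2 or 3 or any treated rat of Year 2 was left out, with FDR values from 0.061 to 0.116.

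*Sesn2* and *Gadd45a*, which respond to p53 and to other stress pathways, did not rise. Sestrin 2 restrains growth signaling and oxidative stress, and its CPM ranged from 65.2 to 83.3 in the 9 treated rats and from 66.6 to 89.8 in the 9 control rats. At Year 2 it was 79.6, 89.8, and 77.3 in controls and 71.6, 68.8, and 76.9 in the treated rats, so that the groups were just apart, whereas they overlapped at Year 0.5 and Year 1. The log2 fold change of *Sesn2* was -0.09, 0.06, and -0.19 at the 3 time points (FDR 0.445, 0.709, and 0.0739). With library size as the only scaling the Year 2 value was -0.36 with an FDR of 0.0046, on log2(TPM + 1) it was -0.39 with an FDR of 0.00724, and without control replicate 3 of Year 2 it was -0.23 with an FDR of 0.0445.

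*Gadd45a* encodes a growth arrest protein that binds the replication clamp and p38 pathway kinases. Its CPM at Year 1 was 37.4, 40.4, and 44.0 in controls and 31.4, 29.6, and 36.1 in the treated rats, and at Year 2 it was 42.0, 34.7, and 34.7 against 26.9, 28.1, and 32.8. The groups were apart at both times and overlapped at Year 0.5. The difference was -0.37 (SE 0.16, FDR 0.107) at Year 0.5, and *Gadd45a* fell at Year 1 (-0.32, SE 0.10, FDR 0.0319) and Year 2 (-0.35, SE 0.11, FDR 0.027), with a mean effect of -0.35 (SE 0.08, FDR 0.00159). The Year 1 call was lost without control replicate 2 or 3 or treated replicate 1 or 2 of that time point (FDR 0.0728 to 0.129) and in 1 model of all 18 rats (FDR 0.075). The Year 2 call was lost without control replicate 1 or treated replicate 1 or 2 (FDR 0.0887 to 0.101) and in that model (FDR 0.0597), and the Year 0.5 difference was -0.20 (FDR 0.331) without control replicate 3 and passed without treated replicate 3 (-0.52, FDR 0.0334), with library size as the only scaling (-0.47, FDR 0.049), and on log2(TPM + 1) (-0.50, FDR 0.0447).

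Over the 3 time points together, 5 of the 9 genes rose (*Cdkn1a*, *Cdkn2a*, *Gdf15*, *Ccng1*, and *Bax*) and 2 fell (*Cdkn2b* and *Gadd45a*) in the mean effect, where 32.7% of the genes tested rose and 33.4% fell. *Mdm2* (0.04, FDR 0.422) and *Sesn2* (-0.08, FDR 0.266) did not pass. The *Sesn2* value passed with library size as the only scaling (-0.21, FDR 0.00439) and on log2(TPM + 1) (-0.27, FDR 0.00158). One member was a DEG at each time point, *Cdkn2a* at Year 0.5 and Year 1, where it passed the filter on low counts only through the treated rats, and *Cdkn1a* at Year 2; among all genes tested, 6.07%, 6.13%, and 8.17% were DEGs with higher levels.

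Whether the effect of MWCNT itself changed with time was tested as the difference between the Year 2 and the Year 0.5 effect. Among the 9 genes, 0 passed this test in edgeR, and 1.31% of all genes tested did; 1 of the 9 genes was at an unadjusted p under 0.05, and 1 passed in DESeq2. The gene closest to the threshold was *Cdkn2b*, whose effect was 0.62 lower on the log2 scale at Year 2 (value -0.62, SE 0.15, FDR 0.0503). In DESeq2 the *Cdkn2b* difference was -0.63 with an FDR of 0.00489. It also passed without control replicate 3 of Year 2, treated replicate 2 of Year 0.5, treated replicate 2 of Year 1, or treated replicate 3 of Year 2, with FDR values from 0.0177 to 0.0493.

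Levels also moved with time inside a treatment. In the control rats, *Bax* rose between Year 0.5 and Year 2 (log2 fold change 0.59, SE 0.08, FDR 0.00129), 1 of 9 genes, while 2.65% of genes tested rose. *Cdkn2a*, whose p16INK4a transcript is known to accumulate with age, differed by 1.94 (SE 0.58, FDR 0.0547) in the control rats, and *Cdkn2b* by 0.32 (SE 0.10, FDR 0.0711). The *Cdkn2a* difference passed without control replicate 3 of Year 1 or Year 2 or treated replicate 1 or 3 of Year 2 (FDR 0.0301 to 0.0475) and in DESeq2 (FDR 0.0221), and that of *Cdkn2b* passed without treated replicate 3 of Year 2 (FDR 0.0467) and in DESeq2 (FDR 0.0379). In the treated rats, 2 of the 9 genes rose, *Bax* (0.38, SE 0.08, FDR 0.00533) and *Cdkn2a* (1.68, SE 0.49, FDR 0.0303), with 6.65% of genes tested rising. The *Cdkn2a* value was 0.92 (FDR 0.233) without treated replicate 3 of Year 2, and the call was also lost without any 1 treated rat of Year 0.5 (FDR 0.073 to 0.102). *Cdkn2b* differed by -0.30 (FDR 0.073) in the treated rats, and without treated replicate 3 of Year 2 it fell (-0.42, FDR 0.0151), as it did in DESeq2 (-0.30, FDR 0.0406) and on log2(TPM + 1) (-0.37, FDR 0.0425).

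Levels of different genes were compared in TPM, a unit that scales counts by gene length and library size. *Cdkn1a* had the highest mean level, between 53.2 and 140 TPM (median 85.8) in the 9 control rats and between 119 and 172 TPM (median 139) in the 9 treated rats. *Ccng1* followed, with 59.2 to 80.7 TPM and 96.0 to 114 TPM. *Bax*, *Gadd45a*, *Mdm2*, *Sesn2*, and *Gdf15* had medians from 32.8 to 61.7 TPM in controls and from 35.9 to 63.0 TPM in the treated rats, and neighbors in this order overlapped, except *Gadd45a* (52.4 to 76.7 TPM) and *Mdm2* (37.8 to 49.8 TPM) in the control rats. In the treated rats the ranges of *Cdkn1a* and *Ccng1* were apart, and in the control rats they overlapped. *Cdkn2b* was lower (medians 28.8 and 21.3 TPM) and overlapped with *Gdf15* in the control rats. *Cdkn2a* was the lowest, with 0.37 to 3.86 TPM in controls and 1.39 to 10.6 TPM in the treated rats, and did not overlap with any other member.

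The genes whose log2 CPM followed each member most closely over the 18 rats were taken from 14842 genes compared. *Ccng1* had the closest neighbors, *Osmr*, *Mitf*, and *Tgfbr1*, with Pearson correlations of 0.99, 0.989, and 0.989. *Cdkn1a* was most like *Glis1* (0.967), *Atp1b1*, and *Slc7a6*, and *Cdkn2a* was most like *Rps6ka1* (0.916), *Myh4*, and *Rac2*. *Cdkn2b* was most like *Bmp8b* (0.928), *Zfpm1*, and *Dmtn*. *Gdf15* was most like *Chac1* (0.858), a target of the stress factor Atf4, and then *Msantd3* and *Slc1a4*. *Bax* was most like *Ccdc88b* (0.948), *Slc8b1*, and *Uqcr10*, and *Gadd45a* was most like *Gja4* (0.897), AABR07054614.1, and *Lipe*. *Mdm2* was most like *Cass4* (0.87), *Vps25*, and *Egr3*. The weakest neighbors were those of *Sesn2* (*Rnf168*, 0.80, then *Abhd17a* and *Haus5*). All rats share the 6 groups, so these values mostly describe group differences.

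Among the members themselves, *Cdkn1a* and *Ccng1* correlated at 0.87 over the 18 rats and *Ccng1* and *Cdkn2b* at -0.77. After the group means had been subtracted, *Cdkn1a* and *Ccng1* correlated at 0.29, and the largest value was that of *Cdkn1a* with *Sesn2*, at -0.84. Among these 18 rats, those with more *Cdkn1a* than their group tended to have less *Sesn2*. This pair was picked as the most extreme of all pairs of members, and the control rats varied more in *Cdkn1a* than the treated rats did.

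The other genes of the pathway were examined as lists. Over all genes tested, 20.2%, 21.6%, and 25.2% rose at the 3 time points in turn, and 18.6%, 19.6%, and 24% fell. These shares stand beside the counts of each list and each set of markers below. The lists were chosen with earlier results of these data known, so these counts do not test a list against all genes. Of 31 other p53 pathway genes tested at Year 0.5, 7 rose and 3 fell; of 32 tested at Year 1, 9 rose and 5 fell; and of 32 tested at Year 2, 11 rose and 8 fell. The median log2 fold change of this list was 0.02, 0.04, and 0.05. Among 31 genes tested at every time point, 7 rose at all 3, among them *Aen* and *Sulf2*, and 1, *Perp*, fell at all 3. The shares above are for single time points, and none is given here for genes that passed at all 3 or at none. *Aen*, an exonuclease gene of p53-dependent apoptosis, had log2 fold changes of 0.74, 0.70, and 1.09 (FDR 0.00206, 0.00076, and 8.81e-06). *Sulf2*, a heparan sulfatase gene, had values of 0.61, 0.60, and 0.77 (FDR 0.000152, 0.000245, and 2.75e-05).

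*Perp*, which encodes a desmosome-associated membrane protein of epithelia that is also a p53 target, had log2 fold changes of -0.66, -0.77, and -1.32 (FDR 0.000661, 9.07e-05, and 7.37e-06). *Spata18*, a gene of mitochondrial quality control, was at -0.54 (FDR 0.103), -1.10 (FDR 0.000265), and -1.14 (FDR 0.000455). A further 11 genes of the list did not pass at any time point, with log2 fold changes from -0.38 to 0.54. They included the DNA repair and synthesis genes *Ddb2*, *Xpc*, *Rrm2b*, *Polk*, and *Polh*, which were named after their values were seen. *Ddb2*, the damage recognition subunit, was at 0.07, 0.20, and -0.04, and *Xpc* was at 0.05, 0.12, and 0.14.

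**Figure D3:**
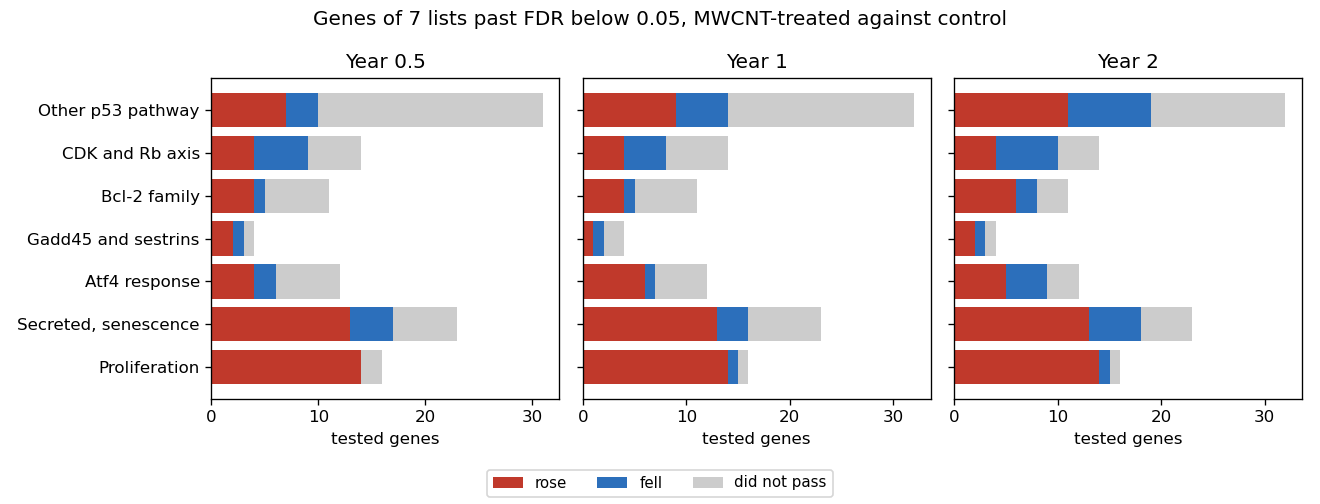
Number of tested genes (horizontal axis) that rose, fell, or did not pass the test in 7 gene lists (vertical axis) at each time point. The proliferation list has 14 of 16 genes that rose at each time point. The other p53 pathway list has 7, 9, and 11 that rose of 31, 32, and 32 tested. Over all genes tested, 20.2%, 21.6%, and 25.2% rose.

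In the list of CDK inhibitors, Rb family members, and G1 cyclins, 4 of 14 genes rose and 5, 4, and 6 fell at the 3 time points. *Cdkn1b*, the gene of the CDK inhibitor p27, fell (-0.58, -0.42, and -0.70; FDR 0.00133, 0.00234, and 2.79e-05), as did *Ccnd3*, which encodes cyclin D3 (-0.30, -0.33, and -0.66; FDR 0.00751, 0.0119, and 0.00131). *Rbl1*, the gene of the Rb relative p107, rose (1.04, 0.86, and 1.20; FDR 0.000424, 0.00321, and 0.000329). *Ccnd2*, the gene of cyclin D2, rose as well (0.33, 0.43, and 0.72; FDR 0.0309, 0.00672, and 0.00106). Cyclins D2 and D3 thus moved in opposite directions.

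In the list of proliferation genes, 14 of 16 rose at every time point, with median log2 fold changes of 1.35, 0.88, and 0.85. *Mki67*, the standard marker of cycling cells, rose by 1.59 (FDR 2.38e-05), 0.76 (FDR 0.000876), and 1.02 (FDR 0.00106) on the log2 scale. *Top2a*, a mitotic topoisomerase gene, rose by 1.58, 1.06, and 1.16 (FDR 2.94e-05, 0.000184, and 4.51e-05), and *Mcm6*, a helicase subunit gene, by 0.83, 0.85, and 0.87 (FDR 0.00154, 0.000179, and 5.99e-05). *Mcm7*, another helicase subunit gene, did not pass at any time point (-0.09, -0.02, and -0.11), and *Aurkb*, a mitotic kinase gene, was at -0.20 (FDR 0.486), -0.64 (FDR 0.0124), and -0.66 (FDR 0.0066). The higher levels of the arrest gene *Cdkn1a* were therefore measured in lungs with higher levels of proliferation genes.

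Of the genes used as markers of senescent cells and their secreted factors, 13 of 23 tested rose at each time point, and 4, 3, and 5 fell, with median log2 fold changes of 0.69, 0.80, and 1.04. *Mmp12*, the macrophage elastase gene, rose by 5.71, 5.99, and 6.22 (FDR 7.84e-07, 4.31e-08, and 1.56e-07), and *Ccl2*, a monocyte chemokine gene, by 3.80, 4.86, and 3.72 (FDR 2.2e-05, 3.6e-06, and 1.56e-07). *Vegfa*, the vascular growth factor gene, fell (-0.87, -0.77, and -1.45; FDR 0.00181, 0.00732, and 2.75e-05), and so did *Igfbp5* (-0.95, -0.90, and -1.17; FDR 0.00382, 0.000149, and 0.000457), which encodes an insulin-like growth factor binding protein. Inflammatory macrophages also express several genes of this list. The list was chosen, like the others, with earlier results of these data known, so its count is no test of senescence. *Mmp3* and *Mmp10* had too few counts to be tested. *Il6* had too few counts for the yearly comparisons, and in 1 model of all 18 rats, which it entered through the treated rats (7 to 22 counts, against 0 to 7 in controls), it was at 3.02, 1.89, and 1.77 (FDR 0.00379, 0.0407, and 0.0296). In the yearly comparisons, *Il1a*, *Il1b*, and *Lmnb1*, whose product lamin B1 is lost in senescent cells, did not pass the test. *Lmnb1* was at 0.33, 0.31, and 0.21; these genes were named after their values were seen.

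In the Bcl-2 family, 4, 4, and 6 of 11 genes rose and 1, 1, and 2 fell. The survival gene *Bcl2a1* rose by 1.48, 1.80, and 1.54 (FDR 8.04e-05, 4.79e-05, and 1.11e-06) and the death gene *Bmf* by 1.00, 0.84, and 1.24 (FDR 3.57e-05, 0.000259, and 8.81e-06). *Bcl2l2*, another survival gene, fell (-0.40, -0.37, and -0.54; FDR 0.00206, 0.0234, and 0.000134), and *Bok*, a relative of *Bax*, was at -0.49 (FDR 0.0696), -0.35 (FDR 0.107), and -0.70 (FDR 0.00522). Family members of opposite function thus rose together.

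The paralogs of *Gadd45a* and *Sesn2* did not move as one. *Gadd45g* rose by 1.04, 1.21, and 1.30 (FDR 0.000402, 0.000181, and 9.96e-06), while *Gadd45b* was at -0.34 (FDR 0.101), -0.35 (FDR 0.108), and -0.30 (FDR 0.0233). *Sesn3* was at 0.34 (FDR 0.0116), 0.19 (FDR 0.0694), and 0.39 (FDR 0.0294). Of the 4 paralogs tested, 2, 1, and 2 rose and 1 fell at each time point.

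Genes of the integrated stress response, which can raise *Gdf15* and *Sesn2* without p53, were also divided: 4, 6, and 5 of 12 rose and 2, 1, and 4 fell. *Slc7a11*, the cystine transporter gene, rose by 3.43, 2.07, and 3.69 (FDR 0.000302, 6.28e-05, and 4.51e-05), and *Asns*, the asparagine synthetase gene, by 0.39, 0.60, and 0.59 (FDR 0.00751, 0.00307, and 0.000621). *Vldlr*, a lipoprotein receptor gene, fell (-0.51, -0.40, and -0.60; FDR 0.00105, 0.00766, and 0.000393). *Trib3*, a pseudokinase gene of this response, was at 0.29 (FDR 0.137), 0.64 (FDR 0.00304), and -0.55 (FDR 0.00365), the rise at Year 1 being followed by lower levels at Year 2.

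Markers of lung cell types moved with the treatment beside all of these results. Of 9 macrophage markers, 8, 8, and 9 rose at the 3 time points, and the one that differed, *Cd163*, was at -0.25 (FDR 0.559), -1.15 (FDR 0.00681), and 0.44 (FDR 0.0233; FDR 0.198 in 1 model of all 18 rats). Their summed level was 24500 to 30700 TPM in the 9 control rats and 57000 to 67200 TPM in the 9 treated rats. Such a sum is weighted toward the most abundant markers. The median log2 fold change of the 9 single markers was 1.31, 1.30, and 1.49 at the 3 time points. The 6 markers of alveolar type 2 cells, which make surfactant, rose at each time point, with sums of 27300 to 36000 TPM and 50700 to 60300 TPM. Endothelial markers (4 of 4 fell at each time point) summed to 1020 to 1410 TPM and 317 to 729 TPM, and those of alveolar type 1 cells (5, 4, and 5 of 5 fell) to 4340 to 5120 TPM and 2310 to 3360 TPM. None of these 4 sums overlapped between treatments, and the lungs of both treatments held the surfactant markers that define the tissue.

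**Figure D4:**
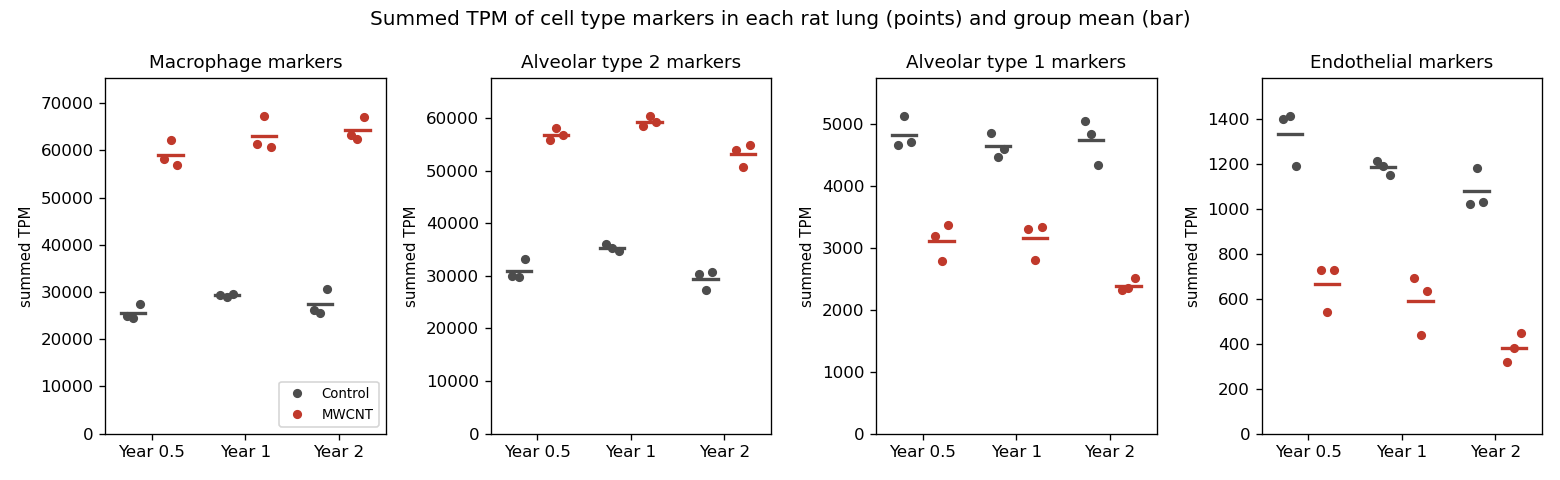
Summed TPM (vertical axes, from 0) of markers of macrophages, alveolar type 2 cells, alveolar type 1 cells, and endothelium in each rat by time point, with control rats in gray, MWCNT-treated rats in red, and bars for means of 3 rats. The endothelial sum lies between 317 and 447 TPM in the treated rats of Year 2 and between 1020 and 1180 TPM in their controls.

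At Year 2, 2 of 4 neutrophil markers rose and 5 of 7 lymphocyte markers fell, 2 of 2 airway markers fell, and fibroblast markers were divided (2 rose and 2 fell of 4). Heart muscle markers, which the walls of rat pulmonary veins also express, summed to 67.8 to 557 TPM in controls and 14.1 to 168 TPM in the treated rats, and 5 of 5, 1 of 5, and 1 of 4 tested fell at the 3 time points. The group means of *Cdkn2b* and of the endothelial sum were both lowest in the treated rats of Year 2. Those of the alveolar type 1, airway, lymphocyte, and heart muscle sums were lowest in that group as well. *Ccng1* and the macrophage sum were both higher in every treated rat than in every control rat, and so was the alveolar type 2 sum. The part of these cell types in the results of the 9 genes was not tested.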

How the data were processed

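RNA from pieces of the accessory lobe of the lung of 18 rats was sequenced, with 3 rats in each of the 6 groups given by the sample labels. The authors mapped reads with CLC Genomics Workbench and deposited whole-number counts per gene, without normalization, together with TPM values from the same reads; per the labels the build was Rnor_6.0. Strand use and the treatment of multi-mapping reads are not given in the sources used here. The deposited RPKM and CPM values and the authors' own fold changes and p-values were not used.

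Counts were fitted with edgeR 4.0.16 (R 4.3.3; TMM, quasi-likelihood test, Benjamini-Hochberg adjustment) after a filter on low counts (filterByExpr, minimum count 10, minimum total count 15). The 6 rats of a time point entered each yearly comparison, and all 18 rats with 6 group means entered the mean effect, the difference between years, and the changes with time. CPM were computed from the counts with TMM factors of all 18 rats. Pearson correlations used log2 CPM with a prior count of 2. The fit was tested on simulated data: for the Year 2 comparison it recovered 35.8%, 92.4%, and 100% of genes with simulated log2 fold changes of 0.6, 1, and 2, and for the difference between years 7.6%, 64.2%, and 98.5%. Only 67, 67, and 66 of 14395 genes tested at Year 2 were given these changes, and every gene had the same simulated dispersion between rats. In the real Year 2 comparison 25.2% of genes rose and 24% fell. These rates therefore do not give the power of the real comparisons, or that for genes with few counts.

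Alternatives were no filter, at least 10 counts in every rat, library size only, relative log expression size factors, DESeq2 1.42.0, limma 3.58.1 on log2(TPM + 1), the replicate number as a block, 1 model of all 18 rats, and leaving out each rat. The members and gene lists were chosen with earlier results of these data known. Genes named are the 9 members, *Mki67*, the 2 genes of each non-marker list with the smallest FDR at Year 2 among those that rose and among those that fell, and the 3 genes most correlated with each member; others are said to be chosen after their values were seen, and 1 further gene of the rule is not reported here. Rats were housed in groups, and which of them shared a cage is not given in the sources used here; p-values measure the spread between these rats. Sequences were taken from RefSeq (GRCr8), whose coordinates are not those of Rnor_6.0.

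List genes without a row of that name, 9 in all, were left out. The p53 pathway list held 34 names, the CDK and Rb list 16, the Bcl-2 list 13, the *Gadd45a* and *Sesn2* paralogs 4 (*Sesn1* is in 2 lists), the stress response list 12, the senescence list 26, and the proliferation list 16.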

Additional observations from a re-analysis of the deposited data

Results flagged for a closer look

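Of the genes named, 2 had an effect of MWCNT that differed between Year 2 and Year 0.5, by the test of that difference in the model of all 18 rats. Both had been named for a small FDR among genes that fell at Year 2. The test of the difference uses those same Year 2 values, and 1.31% of all genes tested passed it. For *Perp*, a p53 target of epithelial junctions, the effect was lower at Year 2 (difference -0.65, SE 0.13, FDR 0.023). Its CPM was 106, 98.8, and 111 in controls and 72.0, 57.8, and 70.0 in the treated rats of Year 0.5. At Year 2 it was 129, 118, and 134 in controls and 44.9, 57.2, and 51.5 in the treated rats. For *Trib3*, a pseudokinase gene of the integrated stress response, the difference was -0.84 (SE 0.18, FDR 0.0287). Its CPM was 14.2, 17.7, and 12.4 in controls and 20, 16.4, and 18.1 in the treated rats of Year 0.5, and at Year 2 it was 21.2, 18.7, and 17.7 against 12.9, 13.9, and 12.7. All 3 control rats of Year 2 were above every control rat of Year 0.5 in *Perp*, and 2 of 3 were so in *Trib3*. Groups of 3 rats are too small for a search for outlying rats.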

How the results depend on the processing

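The number of members past the test kept its size within a factor of 1.5 in 122 of 142 alternatives. At Year 0.5 it was 4, and 2 to 4 when a rat was left out, with 2 without control replicate 1. At Year 1 and Year 2 it was 5 and 6, and 4 to 6 in both when a rat was left out, and for the mean effect it was 7 whichever rat was left out, 6 with at least 10 counts in every rat, 8 with library size only, and 9 on log2(TPM + 1). For the difference between the Year 2 and Year 0.5 effects it was 0, but 1 (*Cdkn2b*) without a filter, with at least 10 counts in every rat, with library size only, with relative log expression size factors, and with DESeq2, and 0 to 1 when a rat was left out. For control rats with time it was 1, but 3 with DESeq2 and 1 to 3 when a rat was left out. For treated rats with time it was 2, but 1 with at least 10 counts in every rat, where *Cdkn2a* was not tested, and with the replicate block, 3 with DESeq2 and on log2(TPM + 1), and 1 to 2 when a rat was left out.

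Of 1272 log2 fold changes of single members under alternatives, 1201 kept their direction and their side of the threshold, 34 were no longer past it, and 36 were newly past it. The 1 that turned was the mean effect of *Mdm2* on log2(TPM + 1), -0.15 (FDR 0.00846) against 0.04; that scale moved the median of all genes by -0.13, -0.21, and -0.19 at the 3 time points. Library size only moved it by -0.10, -0.14, and -0.17, and the share of called genes that were higher was 35.1%, 33.2%, and 31.7%, against 52.1%, 52.3%, and 51.2% with TMM, and 30.6%, 23.9%, and 28.0% on log2(TPM + 1). The cause was not tested. Over all genes, the difference between years was called for 194 genes, 476 with DESeq2, and 54 with the replicate block, and the change in control rats for 987, and 469 with the block.

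Replicate numbers did not pair the rats: same-numbered deviations correlated at 0.007 on average (-0.147 to 0.107, 9 pairs), other pairs at -0.003, and 6 of 18 rats correlated best with their own number. With the replicate block, *Cdkn1a* at Year 1 (0.52, FDR 0.0107) and *Gadd45a* at Year 0.5 (-0.37, FDR 0.00988) passed, and *Cdkn2a* at Year 0.5 (1.41, FDR 0.0705) and with time in treated rats (1.56, FDR 0.0879), *Bax* at Year 2 (0.23, FDR 0.0847), and *Gadd45a* at Year 2 (-0.35, FDR 0.0592) did not; no other call of a member changed with it. Depth limits *Cdkn2a* above all, with 3 to 81 counts per rat.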
